A study of Mus musculus with 15 samples.

Results

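Glutathione is the main small thiol of mammalian cells, and its supply begins with cystine. This report follows 8 mouse genes from cystine uptake to peroxide removal, Slc7a11, Gclc, Gclm, Gss, Gsr, Gpx1, Gpx2 and Gpx4, among the 37583 genes counted in the series. They were chosen by name with an earlier result of the same libraries in view, the comparison of CD34-positive with CD34-negative cells, so that comparison is described here without a test. All 8 had a count row in each library and all 8 passed the filter on low counts that 14652 genes passed.

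RNA was profiled from skin tumour cells of C57BL/6 mice. All animals, WT mice included, had been treated for more than 24 weeks with DMBA, which mutates DNA, and TPA, a tumour promoter of the phorbol ester class. The mice were SIRT6 KO, with K14-cre and SIRT6 flox/flox (called KO here), or WT. K14-cre is active in keratinocytes, so other cells of a KO tumour keep the gene. The labels do not say whether WT mice carried either allele alone. Flow cytometry separated the cells by CD34, a surface protein of the hair follicle bulge, and by integrin alpha 6 (a6, encoded by Itga6), a laminin receptor of basal keratinocytes. The 3 populations were a6-high cells with CD34, a6-high cells without it and a6-low cells without it, named below by both markers or, where 1 suffices, as CD34-positive or a6-low cells, each with 2 KO and 3 WT libraries, 15 in all.

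Cystine enters the cell through the exchanger encoded by Slc7a11, which gives out glutamate in return, and is reduced to cysteine. The ligase made of the Gclc and Gclm subunits joins cysteine to glutamate, and the synthetase Gss adds glycine. Glutathione peroxidases use the product to reduce hydrogen peroxide and lipid peroxides, and the reductase Gsr returns oxidised glutathione to its reduced form. In skin, which meets oxidants and sunlight, several of these genes are known targets of NRF2, a transcription factor that binds antioxidant response elements, and Slc7a11 is also a known target of ATF4, which binds C/EBP-ATF elements.

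The promoters of 6 of the 8 genes were present in the RefSeq table used (build GRCm38.p6, other than the build of the counts), from 250 bases before to 50 bases after each start. Slc7a11 and Gclm are shown because theirs hold the motifs searched for. The searches covered both strands for TGACNNNGC, the core of the antioxidant response element, TGATGNAA, the core of the C/EBP-ATF element, and TGANTCA, the AP-1 site, whose matches can overlap those of the first motif. Capitals mark the matches, and each sequence runs 5′ to 3′ on the strand of its gene.
Slc7a11 (chr3:50443564-50443863, minus strand): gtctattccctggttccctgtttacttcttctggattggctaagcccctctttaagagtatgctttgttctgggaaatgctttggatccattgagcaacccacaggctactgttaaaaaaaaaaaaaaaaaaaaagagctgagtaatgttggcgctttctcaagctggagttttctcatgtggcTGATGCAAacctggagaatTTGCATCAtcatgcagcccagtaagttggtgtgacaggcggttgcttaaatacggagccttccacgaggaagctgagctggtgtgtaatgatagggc
Gclm (chr3:122245307-122245606, plus strand): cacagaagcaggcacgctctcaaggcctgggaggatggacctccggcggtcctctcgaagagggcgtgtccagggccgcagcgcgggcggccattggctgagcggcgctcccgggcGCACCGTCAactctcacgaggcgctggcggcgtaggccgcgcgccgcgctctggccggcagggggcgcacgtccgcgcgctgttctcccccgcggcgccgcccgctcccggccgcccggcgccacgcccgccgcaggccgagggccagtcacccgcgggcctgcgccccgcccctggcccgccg
The Slc7a11 window held TGATGCAA at -66 to -59 from the start and its mirror form TTGCATCA at -47 to -40, without overlap. The Gclm window held GCACCGTCA at -134 to -126, a match to the antioxidant core on the other strand. Among 32544 promoters of the same length, 12.4% held the antioxidant core, 3.91% the C/EBP-ATF core and 7.79% the AP-1 site. No match lay in the Gss, Gpx1, Gpx2 and Gpx4 windows, which says only that these letters are absent from them.

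Each library held 10.08 to 28.62 M gene counts (M, 1e6), and 15885 to 19380 genes were detected. Levels are given as CPM, the count of a gene per 1e6 counts on scaled library sizes. The CD34-positive libraries held 162.6 to 214.0 CPM of Cd34, against 10.9 to 20.9 CPM in their CD34-negative a6-high partners, which fits the sort labels. Itga6 separated the a6 gates less clearly. Of the a6-low libraries, KO replicate 2 had 445.5 CPM and WT replicate 1 had 470.8 CPM, within the 263.4 to 575.6 CPM of the a6-high libraries, while the other 3 had 67.9 to 174.1 CPM. Results on a6 are therefore also given without these 2 libraries. Sirt6 averaged 6.95 ± 1.12 CPM (SD, n = 6) in KO libraries and 7.68 ± 1.95 CPM (SD, n = 9) in WT libraries, with overlapping values, so its count does not check the KO label, and KO below means the libraries so labelled. The floxed exons are not named in the sources used here.

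Slc7a11, the cystine exchanger, had the widest range of the 8 genes as a fold between its lowest and highest library. Its level in CD34-positive a6-high cells was 148.0 and 117.2 CPM in KO libraries, against 72.9, 9.38 and 43.5 CPM in WT libraries. CD34-negative a6-high cells had 13.6 and 9.55 CPM in KO libraries, against 13.8, 2.34 and 7.06 CPM in WT libraries. Every CD34-positive library thus lay above its same-numbered CD34-negative partner, but WT replicate 2 of the CD34-positive group lay within the CD34-negative range. The CD34-positive over CD34-negative ratio, computed from CPM + 0.5, was 6.64 as a geometric mean over the 5 pairs (mean log2 ratio 2.73 ± 0.73, SD), and ran from 3.48 in WT pair 2 to 11.7 in KO pair 2. CD34-negative a6-low cells had 40.8 and 14.9 CPM in KO libraries, against 12.2, 13.8 and 10.7 CPM in WT libraries, with KO replicate 1 far above the other 4. Part of the annotated Slc7a11 exons resembles alpha-tubulin genes (92.3% identity to Tuba1b over 588 bases), so some of its reads are uncertain in origin.

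The ligase that makes the first bond of glutathione was higher in CD34-positive cells in both of its subunits. Gclc, the catalytic subunit, had 329.8 and 213.3 CPM in CD34-positive KO libraries and 126.2, 63.7 and 149.4 CPM in CD34-positive WT libraries. Its CD34-negative a6-high values were 91.8 and 86.8 CPM in KO libraries and 43.9, 48.2 and 68.5 CPM in WT libraries. Each CD34-positive library exceeded its partner, by 1.32-fold in WT pair 2 to 3.58-fold in KO pair 1 (geometric mean 2.35, mean log2 ratio 1.23 ± 0.54). CD34-negative a6-low cells were close to the CD34-negative a6-high cells, with 96.3 and 80.6 CPM in KO libraries and 68.2, 40.1 and 62.9 CPM in WT libraries. Within every population both KO values lay above all 3 WT values. Of all genes, 14.9% did so in CD34-positive a6-high, 16.5% in CD34-negative a6-high and 8.51% in CD34-negative a6-low cells. The share that did so in all 3 was not computed.

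Gclm, the modifier subunit, which raises the affinity of the ligase for glutamate, had the highest CPM of the synthesis genes. CD34-positive cells had 872.8 and 999.8 CPM in KO libraries and 613.7, 403.0 and 544.7 CPM in WT libraries. The CD34-negative a6-high values were 281.4 and 522.4 CPM in KO libraries and 203.2, 303.5 and 294.6 CPM in WT libraries. The ratio exceeded 1 in all 5 pairs, from 1.33 to 3.10 (geometric mean 2.13, mean log2 ratio 1.09 ± 0.52), and was again lowest in WT pair 2. In a6-low cells it was 234.6 and 350.2 CPM in KO libraries and 200.5, 204.0 and 266.4 CPM in WT libraries, values all below every CD34-positive library. Per kilobase of principal transcript, Gclm exceeded Gclc in every library, 1.49-fold in KO replicate 1 of the a6-low cells to 3.87-fold in WT replicate 2 of the CD34-positive cells. Gclm shares 296 exon bases with Gm17494 on the other strand, which counts that ignore strand cannot assign. It shares 244 with the pseudogene Gm6061 on the same strand, which strand would not separate either.

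Gss, the synthetase of the second step, differed least of the synthesis genes. CD34-positive cells had 82.7 and 90.4 CPM in KO libraries and 96.8, 85.7 and 129.0 CPM in WT libraries. Without CD34, a6-high cells had 53.8 and 64.8 CPM in KO libraries and 76.1, 63.3 and 104.5 CPM in WT libraries. The ratio was small but even, 1.23 to 1.53 over the 5 pairs (geometric mean 1.35, mean log2 ratio 0.44 ± 0.12), although the 2 groups of libraries overlapped. The a6-low values were 52.8 and 61.7 CPM in KO libraries and 50.3, 64.2 and 70.6 CPM in WT libraries. Gss shares 395 exon bases with Acss2 and fewer with 2 antisense genes, which strand would be needed to separate.

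Gsr, which recycles oxidised glutathione with NADPH, separated the a6-high populations fully. CD34-positive cells had 326.3 and 203.9 CPM in KO libraries and 367.9, 187.4 and 235.4 CPM in WT libraries. Their CD34-negative a6-high partners had 106.4 and 38.1 CPM in KO libraries and 171.5, 71.6 and 124.9 CPM in WT libraries. No value overlapped, and the ratio ran from 1.88 in WT pair 3 to 5.30 in KO pair 2 (geometric mean 2.79, mean log2 ratio 1.48 ± 0.58). CD34-negative a6-low cells had 115.4 and 73.3 CPM in KO libraries and 141.3, 42.6 and 78.6 CPM in WT libraries, also all below the CD34-positive range.

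**Figure D1:**
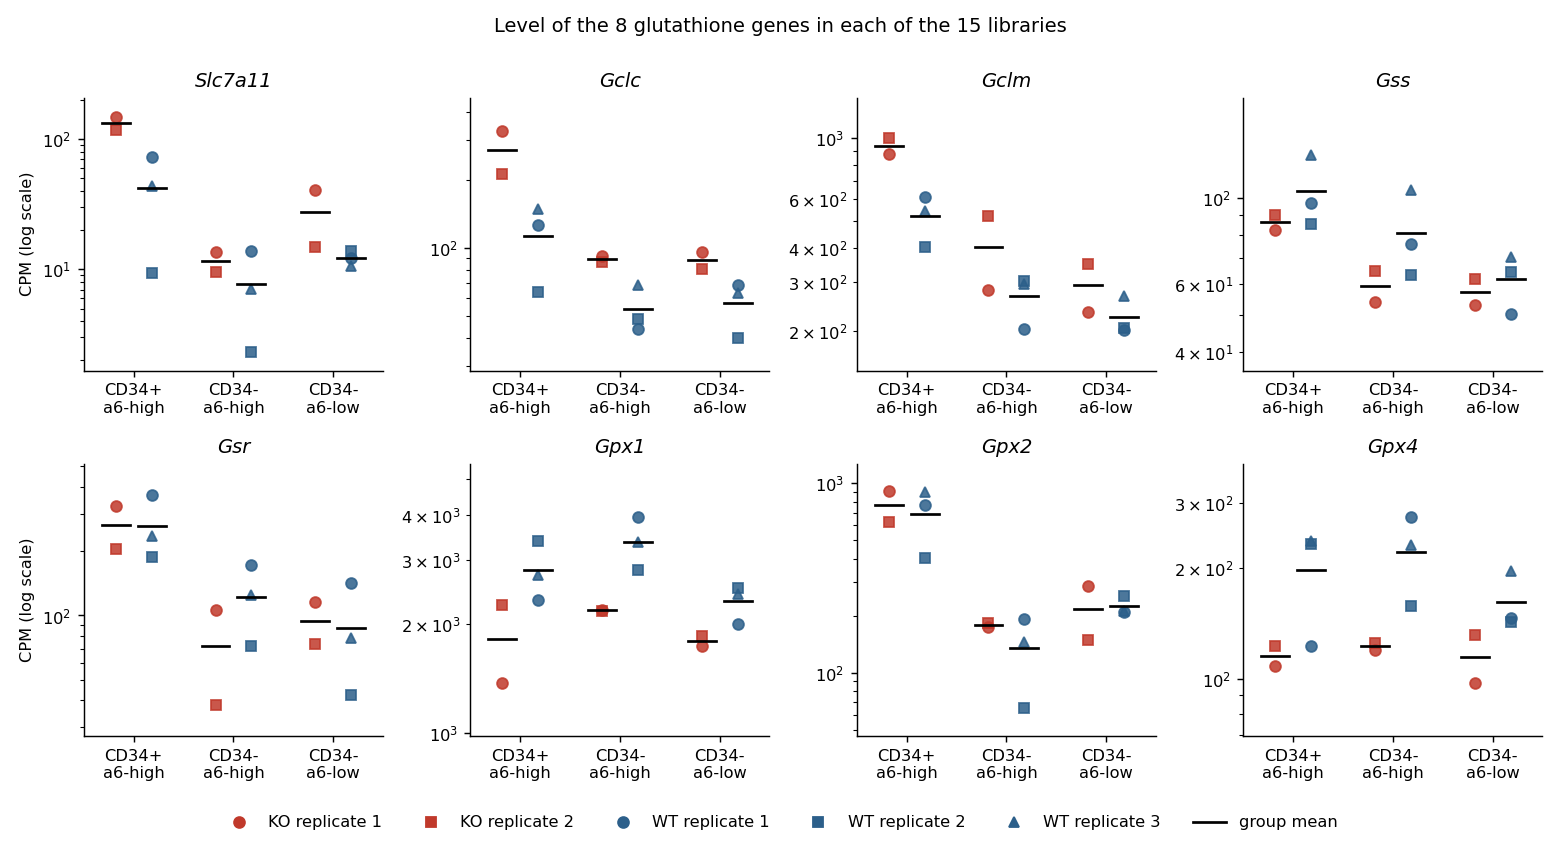
Level in CPM (log axis, own scale per panel) of the 8 genes in each library, by population, with KO (red) left of WT (blue), a marker shape per replicate number and a bar for the group mean. Slc7a11, Gclc, Gclm, Gss, Gsr and Gpx2 have their highest mean in CD34-positive a6-high cells, while Gpx1 and Gpx4 do not. Both KO values of Gpx1 and Gpx4 lie below the 3 WT values in each population. Of all genes, 13.2% lie so in CD34-positive a6-high, 13.7% in CD34-negative a6-high and 6.38% in CD34-negative a6-low cells. The share in all 3 was not computed.

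The peroxidases divided. Gpx2, a selenium-dependent peroxidase known from gut and other epithelia, was the second member whose CD34-positive and CD34-negative a6-high values did not overlap. CD34-positive cells had 907.1 and 623.2 CPM in KO libraries and 769.9, 403.7 and 898.2 CPM in WT libraries. The level in CD34-negative a6-high cells was 174.6 and 182.0 CPM in KO libraries and 193.1, 64.7 and 144.9 CPM in WT libraries. The lowest CD34-positive value, in WT replicate 2, was still above every CD34-negative value. The ratio was 4.86 (mean log2 ratio 2.28 ± 0.39), from 3.42 in KO pair 2 to 6.20 in WT pair 2, the pair in which the ratios of Slc7a11, Gclc and Gclm were lowest. The a6-low cells had 285.4 and 148.7 CPM in KO libraries and 209.3, 252.8 and 211.7 CPM in WT libraries. A processed copy, Gpx2-ps1 (98.1% identity over 572 bases), had at most 74 counts in a library. Multiply aligned reads are not counted, so reads that match both may be missing and the Gpx2 level is uncertain to that extent.

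Gpx1, the abundant cytosolic peroxidase that removes hydrogen peroxide, did not follow Gpx2. CD34-positive cells had 1376 and 2257 CPM in KO libraries and 2333, 3379 and 2728 CPM in WT libraries. CD34-negative a6-high cells had 2183 and 2177 CPM in KO libraries and 3946, 2818 and 3351 CPM in WT libraries. The ratio was above 1 in 2 of 5 pairs (geometric mean 0.823, range 0.591 to 1.20, mean log2 ratio -0.28 ± 0.44), so its sign depended on the pair. In a6-low cells it was 1735 and 1856 CPM in KO libraries and 2002, 2518 and 2423 CPM in WT libraries.

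Gpx4, which reduces lipid peroxides in membranes and thereby restrains ferroptosis, was likewise mixed. CD34-positive cells had 108.1 and 122.6 CPM in KO libraries and 123.0, 232.3 and 236.5 CPM in WT libraries. CD34-negative a6-high cells had 120.0 and 125.1 CPM in KO libraries and 275.2, 157.5 and 231.8 CPM in WT libraries. The ratio was above 1 in 2 of 5 pairs (geometric mean 0.901, mean log2 ratio -0.15 ± 0.63), and WT pair 1 alone, at 0.448, set the sign, the mean log2 ratio without it being 0.10. CD34-negative a6-low cells had 97.6 and 131.1 CPM in KO libraries and 146.4, 142.6 and 196.4 CPM in WT libraries. Copies such as Gpx4-ps2 (99.7% identity over 762 bases) make the Gpx4 level uncertain.

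**Figure D2:**
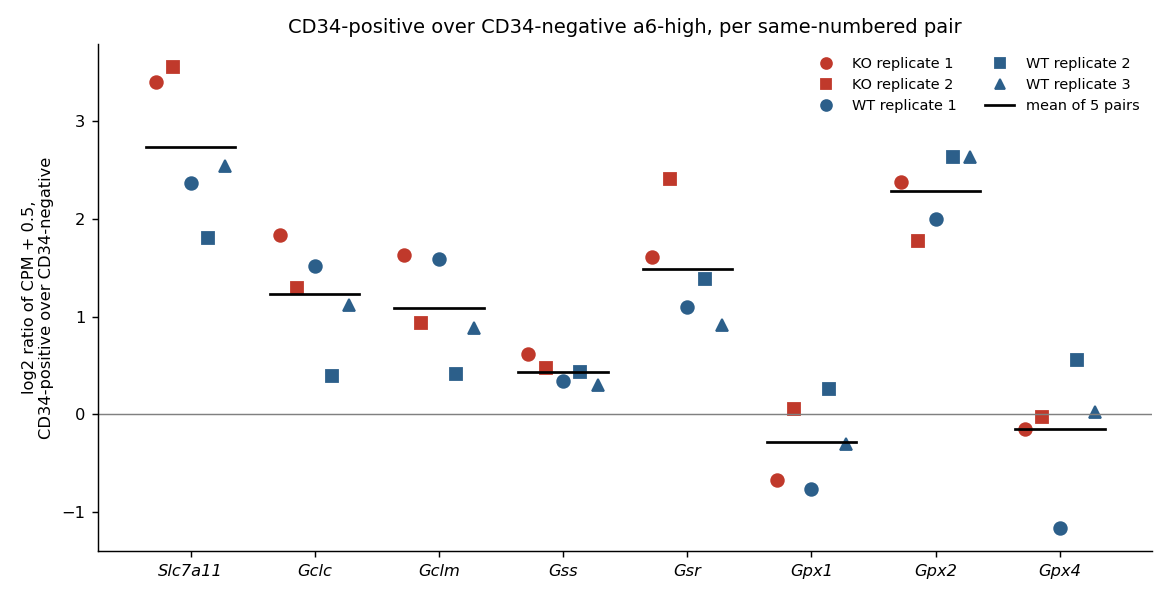
Log2 ratio of CPM + 0.5, CD34-positive over CD34-negative a6-high, for each gene in the 5 same-numbered pairs (KO red, WT blue, bar for the mean of 5). Slc7a11 and Gpx2 have the highest means, 2.73 and 2.28, 6 genes lie above 0 in every pair, and Gpx1 and Gpx4 lie on both sides of 0.

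Over the 8 genes, 6 were higher in CD34-positive cells in all 5 pairs and none was lower in all 5. Among all genes tested, 10.1% were higher and 10.2% lower in every pair. Gsr and Gpx2 had every CD34-positive library above every CD34-negative a6-high library, as had 2.56% of all genes, and none of the 8 had the opposite, as 1.64% had. The median of the 8 mean log2 ratios was 1.16, and the median over all genes tested was -0.02. Because the genes were chosen with this contrast in view, these shares are given as background and nothing is read from them. Against CD34-negative a6-low cells, set side by side by replicate number with no check that the numbers pair them, 5 of the 8 were higher in the CD34-positive cells in every set (14.7% of all genes) and none was lower in every set (14.4%). Gclm, Gss, Gsr and Gpx2 had no overlap and lay above (3.25%), and none lay wholly below (3.67%). Slc7a11 was the exception among the 6, with a CD34-positive over a6-low ratio of 0.693 to 7.65 and 4 of 5 sets above 1, WT set 2 being below.

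Markers of other cells moved with the same gate. Endothelial cells also carry CD34, and all 12 endothelial markers had a higher mean in CD34-positive than in CD34-negative a6-high libraries. Summed, they reached 19.4 to 87.7 CPM in the CD34-positive libraries, against 6.55 to 15.2 CPM in the CD34-negative a6-high ones, with Tek at 0 in every CD34-negative a6-high library. The leukocyte sum was 133.7 to 340.3 CPM in the CD34-positive libraries, against 91.3 to 553.4 CPM in the CD34-negative a6-high ones, with 6 of 12 higher and Cd3e and Cd3g at 0 in the CD34-positive libraries. Fibroblast markers summed to at most 15.7 CPM in any library, Lum being at 0 throughout. The basal keratinocyte sum was 35350 to 70180 CPM in the CD34-positive libraries, against 54910 to 83200 CPM in the CD34-negative a6-high ones, with 1 of 7 higher in CD34-positive cells. Differentiating keratinocyte markers were mixed, with 5 of 7 positive and 2 negative mean CD34 log2 ratios and a median of 0.94. Of the 7, 3 were higher (10.1% of all genes) and 1 was lower (10.2%) in every pair. Their sum was 5501 to 17930 CPM in the CD34-positive libraries, against 7838 to 13980 CPM in the CD34-negative a6-high ones. The part of these markers in the member ratios was not tested, and in sorted bulk RNA a different number of cells of a type and a different amount of RNA per cell cannot be told apart.

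Because the 3 peroxidases have transcripts of similar length (1072 bases for Gpx1, 1067 for Gpx2 and 959 for Gpx4), their levels can be compared per kilobase. Gpx1 was the most abundant of the 8 genes on this scale, at 2306 CPM per kilobase over all 15 libraries, and Slc7a11 the least, at 3.83. Gpx2 averaged 342 and Gpx4 170 CPM per kilobase. As a share of the 3 peroxidases per kilobase, Gpx2 made up 37.9% and 20.7% in CD34-positive KO libraries, against 23.8%, 10.0% and 23.2% in CD34-positive WT libraries. In CD34-negative a6-high cells it made up 7.04% and 7.32% in KO libraries, against 4.36%, 2.13% and 3.88% in WT libraries. CD34-negative a6-low libraries lay at 6.94% to 13.5%, so the lowest CD34-positive share fell inside their range. Gpx4 stayed at 4.24% to 7.69% in all 15 libraries. Multiply aligned reads are not in the counts, so reads that match both Gpx4 and copies such as Gpx4-ps2 may be missing. The same holds for reads that match both Gpx2 and Gpx2-ps1. The Gpx2 and Gpx4 levels and the shares are uncertain to that extent.

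**Figure D3:**
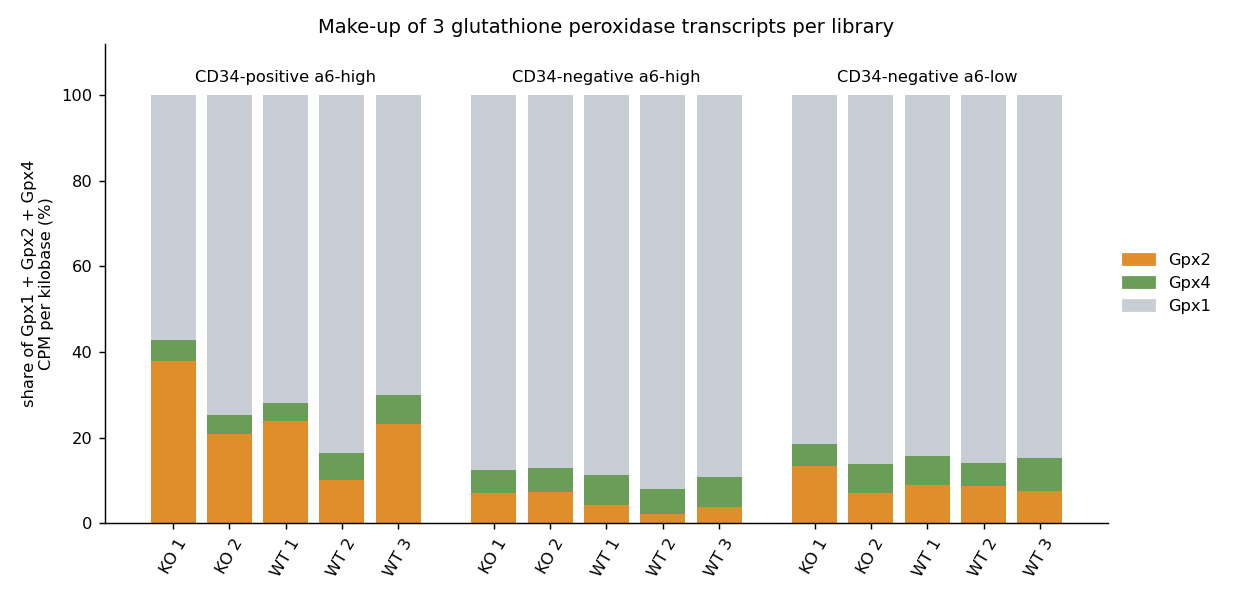
Share of Gpx1, Gpx2 and Gpx4 in their summed CPM per kilobase of principal transcript (percent, linear axis from 0), 1 bar per library, grouped by population. The Gpx2 share is 10.0% to 37.9% in CD34-positive a6-high, 2.13% to 7.32% in CD34-negative a6-high and 6.94% to 13.5% in CD34-negative a6-low libraries. Copies such as Gpx2-ps1 and Gpx4-ps2 make the Gpx2 and Gpx4 parts uncertain.

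The contrast of libraries labelled KO with those labelled WT is not part of the rule that lists these genes, though they were listed with earlier results of these libraries known. In CD34-positive a6-high cells both KO libraries lay above the 3 WT libraries for Slc7a11, Gclc and Gclm, and below them for Gpx1 and Gpx4, while 14.9% of all genes lay wholly above and 13.2% wholly below. The fitted KO minus WT difference was 1.66 ± 0.72 (log2, SE) for Slc7a11, 1.26 ± 0.34 for Gclc and 0.85 ± 0.29 for Gclm. It was -0.63 ± 0.24 for Gpx1 and -0.77 ± 0.31 for Gpx4. None of the 8 passed edgeR's quasi-likelihood test (adjusted p = 0.652 for each of these 5), which called 0.00683% of all genes, and none passed DESeq2. In the edgeR fit 5 of the 8 had an unadjusted p below the 0.05 level, as 7.59% of all genes had. Without the filter on low counts edgeR called Slc7a11 (1.68, adjusted p = 0.00915) and Gclc (1.297, adjusted p = 0.00691), and it then called 195 genes in all in place of 1. The differences of Gss (-0.26 ± 0.25), Gsr (0.01 ± 0.54) and Gpx2 (0.15 ± 0.43) were about as small as their errors or smaller.

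In CD34-negative a6-high cells the same sides were seen for 3 genes. Both KO libraries lay above all WT libraries for Gclc (0.74 ± 0.34, 16.5% of all genes above), and below them for Gpx1 (-0.63 ± 0.24) and Gpx4 (-0.85 ± 0.31, 13.7% of all genes below). None of the 8 passed edgeR's test (0.00683% of all genes called, smallest adjusted p among the 8 0.498 for Gpx4) or DESeq2, and 2 of 8, Gpx1 and Gpx4, had an unadjusted p under 0.05 (9.59% of all genes). CD34-negative a6-low cells gave no member an unadjusted p under 0.05 (4.69% of all genes) and no call by edgeR (0.00683% of all genes) or DESeq2. There Slc7a11 (1.19 ± 0.72) and Gclc (0.63 ± 0.34) had both KO libraries above (8.51% of all genes), and Gpx1 (-0.37 ± 0.24) and Gpx4 (-0.50 ± 0.30) both below (6.38%). The Slc7a11 difference rested on KO replicate 1, at 40.8 CPM. It was 0.30 without that library, and 1.74 without the 2 a6-low libraries of high Itga6, where KO replicate 1 is the KO library left. The Gpx4 difference was -0.29 without KO replicate 1 and -0.73 without KO replicate 2.

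Over the 3 populations together, no member separated all 6 KO from all 9 WT libraries, as 0.382% of all genes did upward and 0.362% downward. Counts summed over the populations for each genotype and replicate number gave 2 KO against 3 WT values. In these sums the difference was 1.41 ± 0.59 for Slc7a11, 0.94 ± 0.28 for Gclc, 0.61 ± 0.18 for Gclm, -0.54 ± 0.15 for Gpx1 and -0.70 ± 0.18 for Gpx4 on the log2 scale. None passed edgeR (adjusted p = 0.461 for the last 4 and 0.469 for Slc7a11, 0.00641% of all genes called) or DESeq2. In the edgeR fit Gclc, Gclm, Gpx1 and Gpx4, 4 of the 8, had an unadjusted p below the 0.05 level, as 10.6% of all genes had. The fitted differences in the sums were thus positive for Slc7a11, Gclc and Gclm and negative for Gpx1 and Gpx4, with no call after adjustment. For Slc7a11 the 95% interval included 0 (-0.004 to 2.829).

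Leukocyte markers moved with genotype in CD34-positive cells, summing to 203.1 and 133.7 CPM in KO libraries and 268.0, 269.8 and 340.3 CPM in WT libraries, although 6 of the 9 tested had a positive fitted KO minus WT difference (median 1.45). In CD34-negative a6-high cells the basal keratinocyte sum was 58720 and 54910 CPM in KO libraries and 83200, 76470 and 77700 CPM in WT libraries, without overlap, although 5 of 7 had a positive fitted difference. Endothelial markers had a negative fitted difference for 8 of 9 tested in CD34-positive cells and in the sums (medians -0.46 and -0.68). Melanocyte markers had a positive one for 5 of 5 in CD34-negative a6-high cells (median 2.11), where they summed to 5.57 and 3.24 CPM in KO libraries and 0.937 to 1.92 CPM in WT libraries. They summed to 140.2 CPM in KO replicate 1 of the a6-low cells and to at most 6.604 CPM in every other library. KO libraries were also deeper, at 19.78 to 28.62 M counts against 10.08 to 21.56 M in WT libraries. The part of these in the genotype differences was not tested.

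**Figure D4:**
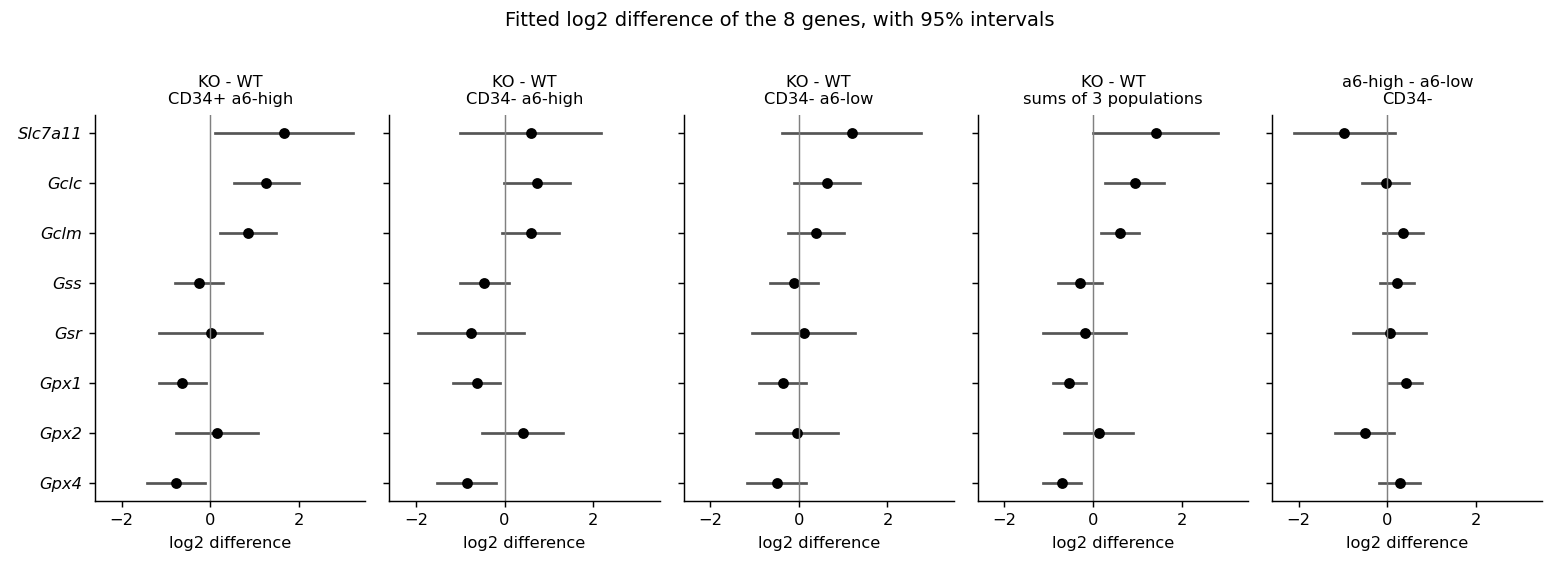
Fitted log2 difference (points) with its 95% interval (lines) for the 8 genes in 5 comparisons, KO minus WT in 3 populations and in their sums, and a6-high minus a6-low in CD34-negative cells. Intervals for Gclc, Gclm, Gpx1 and Gpx4 in the sums exclude 0 before adjustment over all genes, and no member passes after it.

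The a6 gate within CD34-negative cells is likewise outside the rule that lists the genes. None of the 8 passed edgeR's test between a6-high and a6-low cells (0.00683% of all genes called) or DESeq2 (227 genes called in all). In the edgeR fit 1 of 8 had an unadjusted p under 0.05, against 11.1% of all genes. That gene was Gpx1, with a log2 difference, a6-high minus a6-low, of 0.41 ± 0.17 (adjusted p = 0.399, edgeR). Set side by side by replicate number, which is not shown to pair them, Gclm and Gpx1 were higher in a6-high cells in all 5 sets (7.94% of all genes) and none was lower in all 5 (6.85%), and no member had its 5 a6-high libraries wholly above (0.874%) or wholly below (0.901%) the a6-low ones. Slc7a11 had a difference of -0.97 ± 0.53 (adjusted p = 0.54) and Gpx2 of -0.51 ± 0.30 (adjusted p = 0.584), both toward higher levels in a6-low cells. Without the filter on low counts, edgeR called Slc7a11 (-0.97, adjusted p = 0.0443) among 602 genes in all. Without the 2 a6-low libraries of high Itga6 the differences were -1.24 for Slc7a11 and -0.73 for Gpx2, with KO replicate 1 the only KO a6-low library left. Leukocyte markers summed to 91.3 to 553.4 CPM in a6-high and 236.9 to 1599 CPM in a6-low cells. Differentiation markers summed to 7838 to 13980 CPM in a6-high and 6395 to 39630 CPM in a6-low cells, and the part of either list was not tested.

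A difference of effects between groups was tested by interaction terms. Their fit did not use the replicate numbers, so their errors are not those of the ratios of same-numbered libraries. For the CD34 ratio, KO minus WT, the term was largest for Slc7a11, 1.06 ± 1.04 (log2, 95% interval -1.19 to 3.32), and the KO pairs averaged 3.47 (3.40 and 3.55) and the WT pairs 2.235 (2.36, 1.80 and 2.54) in log2 ratio. Leaving out 1 library gave 0.34, without CD34-negative a6-high WT replicate 1, to 1.74, without CD34-positive WT replicate 1. For the a6 difference it was farthest from 0 for Gsr, -0.87 ± 0.77. Without the 2 a6-low libraries of high Itga6 it was -1.69 for Gsr, and the Slc7a11 term was -1.14 in place of -0.60. The Slc7a11 term turned positive, 0.29, without a6-low KO replicate 1 and 0.13 without CD34-negative a6-high WT replicate 1. Leaving out a CD34-negative a6-high KO library gave -1.79 for Gsr without replicate 1 and -0.30 without replicate 2. Gsr was lower in a6-high cells in both same-numbered KO sets (mean log2 ratio -0.53) and higher in all 3 WT sets (0.56), yet the term had an adjusted p of 1 in edgeR. Neither interaction called a member in edgeR or DESeq2, none of the 8 had an unadjusted p under 0.05 (1.09% of all genes for CD34 and 1.15% for a6), and edgeR called no gene (0%), DESeq2 calling 1 for CD34 and 0 for a6. Without the filter on low counts edgeR called 20 genes for CD34 and 13 for a6, no member among them. With a block for each genotype and replicate number edgeR called no gene for either. The intervals are wide enough that equal effects are not shown either.

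In the order of the 6 group means, only some neighbours differed by more than both of their SDs. Slc7a11 in KO CD34-positive cells averaged 132.6 ± 21.8 CPM, above WT CD34-positive cells at 41.95 ± 31.8 CPM, and none of the lower neighbours differed in this way. Gclc and Gclm had their step at the same place, with 271.6 ± 82.4 CPM for Gclc and 936.3 ± 89.8 CPM for Gclm in KO CD34-positive cells, against 113.1 ± 44.3 and 520.5 ± 107.4 CPM in WT CD34-positive cells (n = 2 and 3). Gclc had another step lower down, between KO and WT CD34-negative a6-low cells. Gpx2 stepped below both CD34-positive groups, with 690.6 ± 256.6 CPM in WT CD34-positive cells, against 224.6 ± 24.5 CPM in WT CD34-negative a6-low cells, the next group down. For Gpx4 all 3 KO means lay below the 3 WT means, and the step was between KO CD34-negative a6-high cells at 122.6 ± 3.61 CPM and WT a6-low cells at 161.8 ± 30.0 CPM. Gss, Gsr and Gpx1 had no such step. The KO SDs rest on 2 libraries each. The share of all genes with such a step was not computed, so the steps are a description and nothing is read from them.

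The 5 neighbouring gene lists, 57 genes beside the members, were chosen with earlier results of these libraries known. Of cystine and cysteine supply, 10 of 12 listed genes were tested, and 1 was higher and 0 lower in CD34-positive cells in every pair. Over all genes the shares were 10.1% higher and 10.2% lower, against which the counts of the lists below stand as well. The 1 gene higher was Slc3a2, the heavy chain that carries the Slc7a11 exchanger to the membrane, at 686 ± 105 CPM in CD34-positive cells, against 411 ± 57.4 CPM in CD34-negative a6-high cells (SD, n = 5 each, ratio 1.67). Txnrd1, a thioredoxin reductase that can reduce cystine, had a ratio of 1.54 with 4 of 5 pairs above 1. Cbs, which starts the route from homocysteine to cysteine, had a ratio of 0.941. The list's median log2 ratio was 0.22, against 1.16 for the 8 genes and -0.02 for all genes.

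Of the other peroxidases, Gpx3, Gpx7 and Gpx8 were tested of 5 listed, and none had the same sign in all pairs. Gpx8, an endoplasmic reticulum member, averaged 17.2 ± 16.4 CPM in CD34-positive cells, against 17.7 ± 13.0 CPM in CD34-negative a6-high cells, and Gpx7 was under 1.31 CPM throughout. Of glutathione turnover, export and glutaredoxins, 18 of 20 were tested, with 2 higher and 2 lower in every pair, near the shares of all genes, and a median log2 ratio of -0.12. Glrx, a glutaredoxin that removes glutathione from proteins, had a ratio of 2.36 (132.7 ± 42.6 CPM in CD34-positive cells, against 57.7 ± 22.4 CPM in CD34-negative a6-high cells). Oplah, which opens 5-oxoproline back to glutamate, had a ratio of 0.435 and was lower in all 5 pairs, with 18.1 ± 4.74 and 42.6 ± 12.4 CPM in these cells.

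All 9 genes of selenoprotein synthesis were tested, since Gpx1, Gpx2 and Gpx4 hold selenocysteine. Of these, 2 were higher in CD34-positive cells in every pair and the median log2 ratio was 0.04. Lrp8, a receptor that takes up the selenium carrier selenoprotein P, had a ratio of 1.69, and Sephs2, which makes selenophosphate, 1.35 with 4 of 5 pairs above 1. Of lipid peroxide and iron handling, all 11 were tested, with 1 higher and 1 lower in every pair and a median of 0.37. Ftl1, the ferritin light chain, had 2036 ± 496 CPM in CD34-positive cells, against 1038 ± 345 CPM in CD34-negative a6-high cells (ratio 2.02); it has many processed copies, so its level is uncertain.

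None of the 5 lists had a gene called by edgeR in any tested comparison, higher or lower. The nearest was Gch1, which starts the synthesis of tetrahydrobiopterin, with 19.2 ± 5.60 CPM in a6-high and 52.3 ± 13.1 CPM in a6-low CD34-negative cells (difference -1.45 ± 0.21, adjusted p = 0.0501, edgeR). Hmox1, the heme oxygenase, lay on the same side with -2.04 ± 0.58 (adjusted p = 0.246), and Hagh, the second glyoxalase, with -0.53 ± 0.14 (adjusted p = 0.226).

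**Figure D5:**
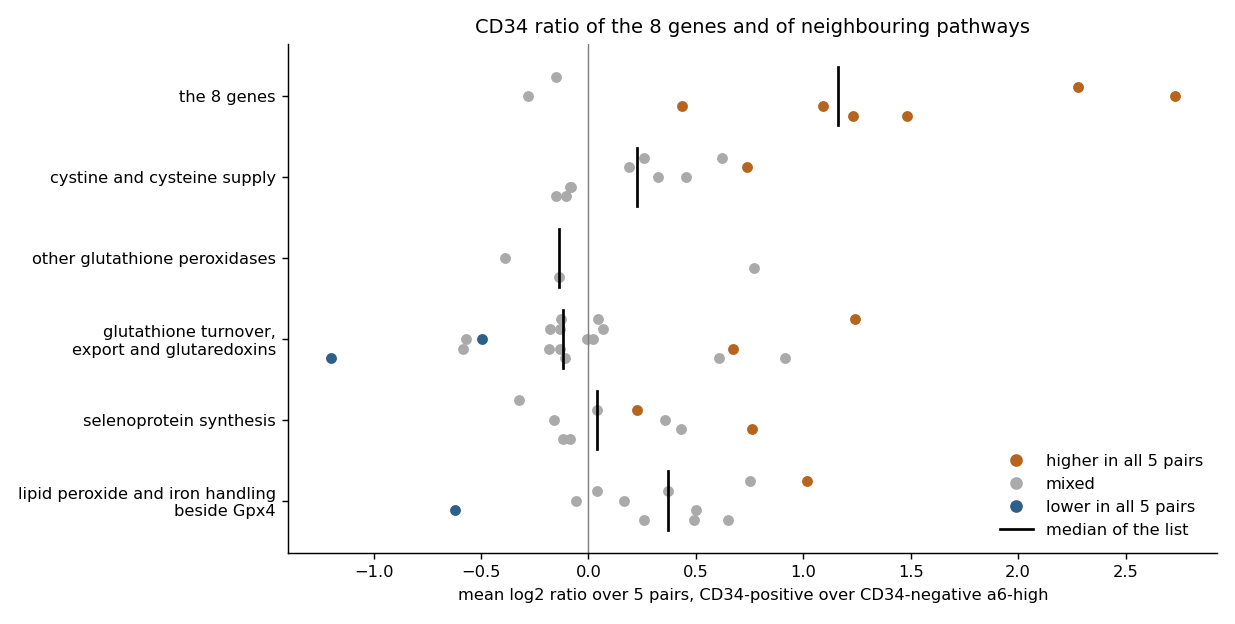
Mean log2 ratio over 5 pairs, CD34-positive over CD34-negative a6-high, 1 point per tested gene, for the 8 genes and the 5 neighbouring lists, with a line for each median. The 8 genes have a median of 1.16, and the medians of the other lists lie between -0.14 and 0.37.

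Likeness across libraries was measured by Spearman's rho of log2(CPM + 1) over all 15, as a description, since the libraries share populations. The 5 genes most like Slc7a11 were Gsta3, a glutathione S-transferase (rho 0.95), Cnga3 (0.91), Map4k4 (0.89), Krt13 (0.86) and Ceacam1 (0.855). Gsta3 averaged 33.1 CPM in CD34-positive, 3.38 in CD34-negative a6-high and 5.28 in CD34-negative a6-low cells. Among the members, Slc7a11 was closest to Gpx2 (0.73) and Gclc (0.69), and had a rho of -0.48 with both Gpx1 and Gpx4. Most like Gpx2 were Gm12446 (0.96), Foxe1, a forkhead transcription factor (0.95), and Grid2ip, Gstp1 and Sqor (0.91 each). Foxe1 averaged 38.3 CPM in CD34-positive, 3.27 in CD34-negative a6-high and 8.29 in CD34-negative a6-low cells. Gstp1 has a near-identical copy in the mouse, so its count is uncertain.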

How the data were processed

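Per the labels' protocols, RNA of sorted tumour cells became cDNA by the SMART-Seq v4 method. The deposited values are raw read counts per Ensembl gene, not normalized by the authors. The tools were HTSeq 0.6.0, STAR 2.3.0 and Picard 1.100 on the build mm9, per the submitters' processing notes. No source used here names the annotation release, so count features carry no coordinates. Library sizes and tests exclude 5 entries without a gene name, among them multiply aligned reads (29.86% to 38.04%), reads outside genes (2.61% to 5.13%) and ambiguous reads (1.86% to 2.2%). Symbols were matched by identifier for 32860 genes (87.4%), with transcript lengths from a GENCODE annotation of another build.

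The labels set the groups, a genotype in a population. The main test was edgeR 4.0.16 in R 4.3.3, with its quasi-likelihood F test on TMM sizes after filterByExpr, in 1 fit of 15 libraries, with Benjamini-Hochberg adjustment over all genes tested, 14652 in the fit and 15597 in the sums, at 0.05. Standard errors were derived from the F statistic. CPM used TMM-scaled library sizes, and pair ratios CPM + 0.5. The fit was tested on simulated data. Alternatives were no filter, at least 10 CPM in 2 libraries, DESeq2 1.42.0, edgeR with the DESeq2 size factors, the compared groups only, a replicate block, a pseudocount of 5, omission of the 2 a6-low libraries of high Itga6, and omission of each library. The replicate block matched KO with WT libraries by number in the genotype comparisons. For a6 and the interactions it matched same-numbered libraries of a genotype across populations. The correlations below do not show that these matches are right.

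Nothing in the labels ties libraries of a group to separate animals, and p-values then measure only a spread between samples that may be technical. Deviations from the group means of same-numbered a6-high libraries correlated at 0.13 to 0.456 between CD34-positive and CD34-negative cells, above 0.1 in each, and they were set in pairs on that basis, not by the labels. Libraries of unlike number within a genotype were not compared, so these values do not show that the pairing is right. Between a6-high and a6-low the correlations were 0.041 to 0.458, and between KO and WT -0.368 to 0.054. Outside the replicate block these were not taken as pairs, and a6-low libraries are set beside others by number only, as a description. Both KO pairs mirror each other. Members, lists and tests were chosen with earlier results of these data known. The named genes were the 8 members, up to 2 genes per list with the smallest p for a6 and 2 with the largest CD34 ratio, the 5 genes most like Slc7a11 and Gpx2, and Sirt6, Cd34 and Itga6. Not all genes so chosen are printed.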

Additional observations from a re-analysis of the deposited data

Results flagged for a closer look

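Sets of 5 library values or 5 ratios of same-numbered libraries of the members were examined for a value far from the other 4, 48 sets in all, and 2 stood out, where chance gives about 1 in 20. Slc7a11 had 40.75 CPM in KO replicate 1 of the CD34-negative a6-low cells, against 10.7 to 14.9 CPM in the other 4 a6-low libraries. The same library had the lowest Itga6 level of all (67.9 CPM) and a melanocyte marker sum of 140.2 CPM, and the part of either in the Slc7a11 value was not tested. Gsr had a log2 ratio, CD34-positive a6-high over CD34-negative a6-low, of 2.12 for WT replicate 2, against 1.38 to 1.58 for the other 4. These libraries are set beside each other by number only, so nothing is read from this value.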

How the results depend on the processing

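Over 64 results on single members, the alternatives that kept all libraries or left out the 2 a6-low libraries of high Itga6 left direction and side of the threshold as they were for 390 values, brought 3 past the threshold and turned 7. The mean log2 CD34 ratios have no threshold, and they were counted as unchanged if the sign held and the shift was below the SD over pairs. The 3 came without a filter on low counts, where 2 members were called for KO against WT in CD34-positive a6-high cells and 1 for a6; the cause was not tested. The 7 were fitted differences, Gss 0.053 (KO minus WT, a6-low, replicate block), Gclm -0.001 and Gpx2 0.301 (the same, without the 2 libraries), the CD34 interaction of Gpx1, 0.037 in DESeq2, 0.038 with its size factors and 0.013 with the compared groups only, and the a6 interaction of Gclc, -0.162 without the 2 libraries. In the main fit these were -0.107 for Gss, 0.387 ± 0.294 for Gclm and -0.049 for Gpx2. The interactions were -0.002 for Gpx1 and 0.107 for Gclc. The block changed no other direction and no call of a member. Leaving out 1 library or pair turned 42 of the values, with no call gained or lost. For KO minus WT the ranges were -0.237 to 0.011 for Gss, -0.247 to 0.635 for Gsr and -0.583 to 0.347 for Gpx2 in a6-low cells, -0.37 to 0.328 for Gsr and -0.146 to 0.403 for Gpx2 in CD34-positive cells, and -0.65 to 0.198 for Gsr and -0.162 to 0.364 for Gpx2 in the sums. For a6 they were -0.148 to 0.033 for Gclc and -0.415 to 0.33 for Gsr. For the CD34 interaction they were -0.118 to 0.77 for Gclm, -0.03 to 0.379 for Gss, -0.398 to 0.308 for Gpx1, -0.618 to 0.072 for Gpx2 and -0.167 to 0.276 for Gpx4. For the a6 interaction they were -1.14 to 0.286 for Slc7a11, -0.04 to 0.323 for Gclc and -0.307 to 0.583 for Gclm, and for the mean log2 CD34 ratio of Gpx4 -0.327 to 0.102. Over all genes edgeR called 1 in each KO and a6 comparison, and the counts moved widely: for KO against WT DESeq2 called 27 in CD34-positive, 33 in the other a6-high and 6 in a6-low cells and 143 in the sums, with 227 for a6, and edgeR without the filter called 195, 256, 156, 6 and 602. The replicate block called 2, 2, 2, 0 and 60 in the same order, and omission of the 2 libraries 342 for a6. For the interactions edgeR called 0 genes, or 20 for CD34 and 13 for a6 without the filter, and DESeq2 1 and 0. The parts of depth and of the number of libraries in these counts were not tested.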
